A study of Mus musculus with 15 samples.

Results

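Bone marrow dendritic cells (DC) grown with interleukin-4 (IL-4) and GM-CSF were compared with DC grown in GM-CSF alone, 6 h after both had been stimulated. The members are the 3 GM4 arrays and the 2 GM arrays that the titles give as 6 h, which are 5 of the 15 arrays of the series. All cells came from female NOD mice aged 6 to 8 weeks, a strain that develops autoimmune diabetes. GM4 DC were cultured for 4 days in GM-CSF and IL-4 (1 ng/ml of each) and purified over 14.5% metrizamide. GM DC were cultured for 4 days in 1 ng/ml GM-CSF and purified over 16% metrizamide. Both received bacterial lipopolysaccharide (LPS, 10 µg/ml) and interferon-γ (IFN-γ, 50 ng/ml) before the RNA was taken. The density step differed along with IL-4, so the effects of the cytokine and of the gradient cannot be told apart. The labels call the replicates biological and do not say how many mice went into a culture. In these bulk cultures, fewer cells of a type and less RNA per cell cannot be told apart.

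IL-4 binds a receptor that activates the transcription factor STAT6, and together with GM-CSF it steers bone marrow precursors towards DC and away from macrophages. LPS is sensed by Tlr4 with the help of Cd14 and acts through NF-kappaB, whereas IFN-γ is read by a receptor of its own. Together they make DC secrete interleukin-12, interleukin-1 and TNF, raise costimulatory molecules, and give up the uptake of antigen for its presentation to T cells.

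Values are MAS5 signals, a brightness per probe set that the authors scaled to a common level on each array. Differences are GM4 minus GM of log2(signal + 16), which understates changes of dim genes, and ± is the standard error (SE) of limma's fit to all 15 arrays. A gene was called higher or lower in GM4 DC when limma's adjusted p was below 0.05 over 12422 probe sets. Levels of different genes cannot be compared, because each is read by its own probes. At 6 h, 794 probe sets were called higher in GM4 DC and 589 lower. Of 8251 genes, each read by its brightest probe set, 638 (7.73%) were called higher and 434 (5.26%) lower. These percentages are the background for the counts of gene lists that follow. The median difference over all genes was -0.02. The difference exceeded 2-fold in 227 of the genes called higher and 188 of those called lower, and it exceeded 4-fold in 10 and 19. In 1068 of the 1072 called genes the 3 GM4 arrays did not overlap the 2 GM arrays, against 3608 of all 8251 (43.7%), and the 4 exceptions were Bnip3, Btf3, Ctage5 and Gys1. Of the 7179 genes not called, 2540 did not overlap either, so lack of overlap alone carries little weight. In 227 of the 287 called genes read by several probe sets, another probe set was not called, and in 5 (Atp5d, Cmip, Cwf19l1, Htra2 and Mrpl2) one was called the opposite way.

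Control probe sets moved with the groups. The Gapdh ratio of 3′ to 5′ signal, which rises with degraded or incompletely copied RNA, was 1.03, 1.11 and 1.48 in GM4 DC, against 1.63 and 1.85 in GM DC. Spiked-in hybridisation controls averaged 8.51, 8.87 and 8.94 on the log2 scale in GM4 DC, against 10.3 and 9.83 in GM DC. The same ratio of beta-actin was 1.13, 1.18 and 1.17 in GM4 DC, against 1.73 and 1.43 in GM DC, without overlap. The exact two-sided permutation p was 0.2 for Gapdh, 0.1 for beta-actin and 0.1 for the hybridisation controls, and 0.1 is the smallest that 3 arrays against 2 allow. With the RNA ratios as a covariate 794 probe sets were called, of which 601 were among the 1383. The part of the controls in the results was not tested beyond such fits. Without GM 6 h replicate 1, which had the brightest hybridisation controls, 604 were called. Without GM4 6 h replicate 3 the number was 881. A member is said below to have been kept when its call held in all 26 alternative fits in which it was tested, among them the fits without each array in turn. Of the called genes, 174 higher (27.3%) and 112 lower (25.8%) were kept.

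The 15 largest differences each way were taken among called genes whose 6 h arrays did not overlap between the groups. Their separation thus follows from the choice. They are led by Fbp1 and Chil3, both of the IL-4 list, on the higher side. Ch25h, of the same list, is among the 15 lower. Fbp1, fructose-1,6-bisphosphatase of gluconeogenesis, had signals of 626, 236 and 239 in GM4 DC, against 5.37 and 3.43 in GM DC. The GM arrays were at background, and the difference was 4.09 ± 0.46, adjusted p = 0.000124. Chil3, the secreted chitinase-like protein Ym1, had 5246, 5394 and 6548 in GM4 DC, against 499 and 759.6 in GM DC. All 3 GM4 arrays lay far above both GM arrays, by 3.18 ± 0.18, adjusted p = 6.77e-07. Slc27a3, of the fatty acid transport protein family, had 295, 203 and 214 in GM4 DC, against 16.1 and 22.2 in GM DC, with only a faint signal in GM DC (2.83 ± 0.30, adjusted p = 8e-05). Washc2, a subunit of the endosomal WASH complex, had 675, 696 and 779.6 in GM4 DC, against 151 and 175 in GM DC and differed by 2.03 ± 0.15, adjusted p = 5.37e-06. Hfe, which binds the transferrin receptor and governs iron uptake, had 379, 328 and 306 in GM4 DC, against 77.6 and 67.8 in GM DC and differed by 1.99 ± 0.23, adjusted p = 0.000138. Gimap1, a GTPase known from lymphocytes, had 59.8, 48.5 and 60.1 in GM4 DC, against 2.87 and 1.26 in GM DC, where it was at background (1.99 ± 0.23, adjusted p = 0.000152). Adam19, a membrane metalloprotease, differed by 1.94. Fbp1, Chil3, Slc27a3, Washc2, Hfe, Gimap1 and Adam19 were kept.

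On the lower side, F10, the precursor of coagulation factor X, had 448, 245 and 183 in GM4 DC, against 2160 and 1256 in GM DC. No GM4 array reached either GM array, and the difference was -2.53 ± 0.39, adjusted p = 0.000859, with both of its probe sets called lower. Pdpn, the mucin-type glycoprotein podoplanin, had 26.6, 25.3 and 21.4 in GM4 DC, against 214 and 199.9 in GM DC, near background in GM4 DC and clearly present in GM DC (-2.46 ± 0.17, adjusted p = 5.37e-06). Sash1, a signalling scaffold, had 99.4, 86.2 and 60.2 in GM4 DC, against 544 and 403 in GM DC and differed by -2.33 ± 0.23, adjusted p = 5.12e-05. H2-M2, a non-classical class I molecule, had 793, 465 and 387 in GM4 DC, against 2660 and 2327 in GM DC and differed by -2.22 ± 0.35, adjusted p = 0.00111. F10, Pdpn, Sash1 and H2-M2 were kept. Mmp8, neutrophil collagenase, had 8.42, 7.39 and 5.88 in GM4 DC, against 238 and 130.3 in GM DC (-3.05), and its call was lost without GM 6 h replicate 1 (-2.66, adjusted p = 0.0564). Ier3, an immediate early gene, differed by -2.15 and was lost without the same array (-1.59, adjusted p = 0.0547).

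**Figure D1:**
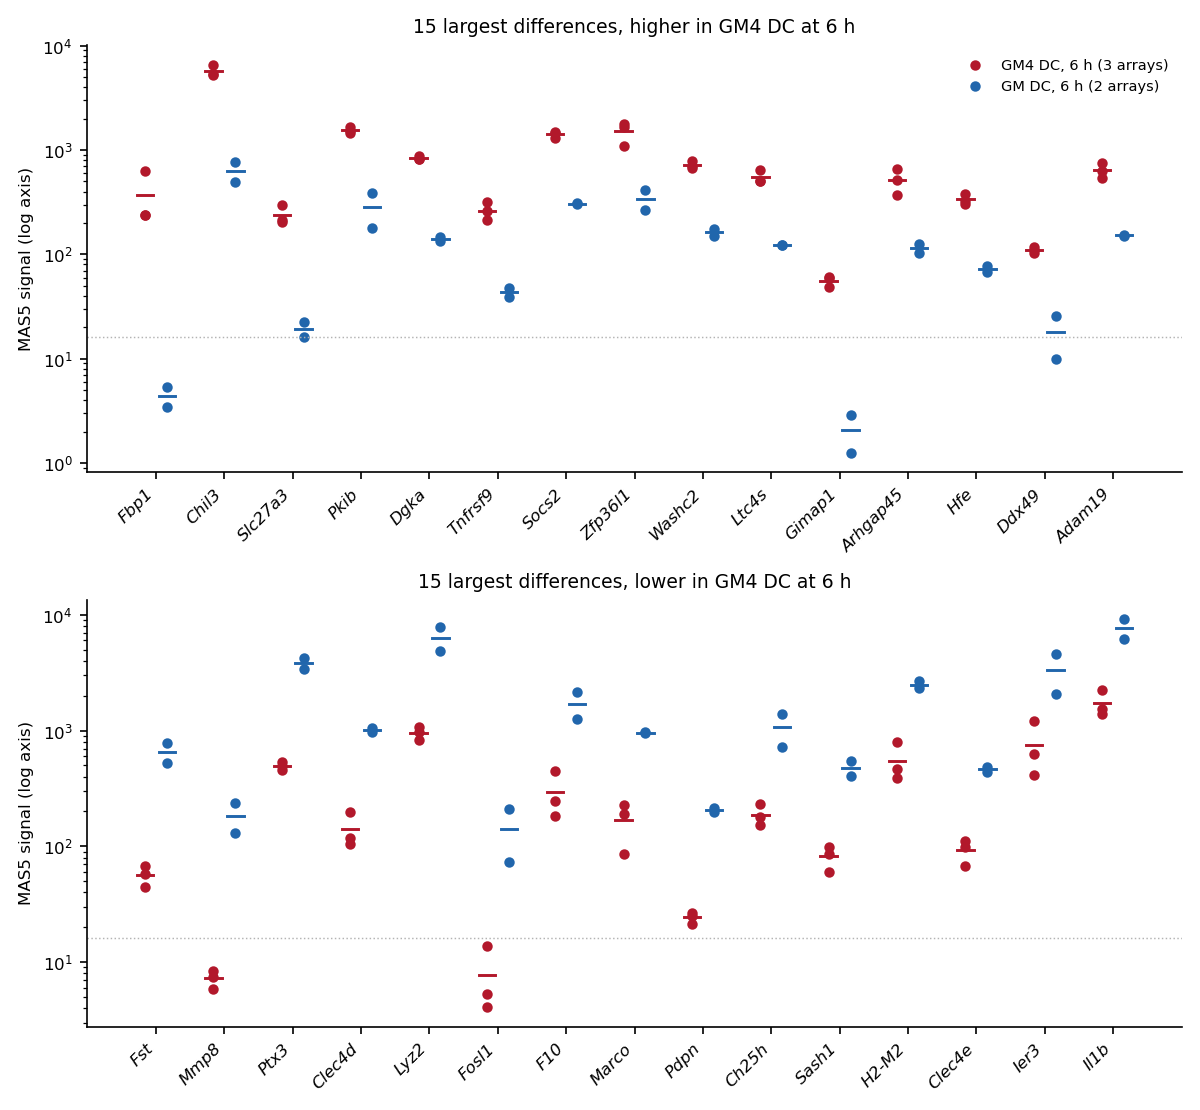
MAS5 signal (log axis) of the 15 largest differences higher in GM4 DC at 6 h (top) and the 15 largest lower (bottom). Each point is 1 array, short bars are means, GM4 DC (3 arrays) stand left of GM DC (2 arrays), and the dotted line marks the offset of 16. All 30 genes were chosen among those whose groups do not overlap. Fbp1, Gimap1, Mmp8 and Fosl1 have 1 group below the line.

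Genes of the IL-4 and STAT6 response split. Of 21 measured, 9 were called higher and 3 lower, with a median difference of 0.06 at 6 h. Dgka, a kinase that removes diacylglycerol, had 816, 824 and 871 in GM4 DC, against 134 and 148 in GM DC. The replicates lay close together in both groups, and the difference was 2.45 ± 0.18, adjusted p = 5.37e-06. Batf3, a transcription factor that the cross-presenting DC lineage needs, had 1439, 897 and 1017 in GM4 DC, against 343 and 297 in GM DC and differed by 1.73 ± 0.20, adjusted p = 0.000169. Irf4, a transcription factor that IL-4 and GM-CSF raise in DC, had 2637, 1706 and 1843 in GM4 DC, against 593 and 644 in GM DC, again without overlap (1.69 ± 0.28, adjusted p = 0.00175). Arg1, arginase, had 850, 1157 and 733 in GM4 DC, against 369 and 368 in GM DC and differed by 1.25 ± 0.19, adjusted p = 0.000805. Chil3, Fbp1, Dgka, Batf3 and Arg1 were kept.

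The weaker calls of this list were Vdr, the vitamin D receptor (1.58), Cish, a feedback inhibitor (0.98), and Ccl17, a chemokine for T cells with Ccr4 (0.84). Vdr was lost without GM 6 h replicate 2 (1.05, adjusted p = 0.0799). Ccl17 was lost without GM4 6 h replicate 1 (0.86), GM4 6 h replicate 3 (0.70) or GM 6 h replicate 1 (0.53). Cish was lost without any 1 of the 6 h arrays except GM4 replicate 2, with differences of 0.71 to 1.14. Called lower were Ch25h, which makes 25-hydroxycholesterol, Socs1, which blocks JAK signalling, and Mrc1, the mannose receptor (-0.86). Il4ra, a chain of the receptor itself, did not pass, at 903, 529 and 497 in GM4 DC, against 721 and 503 in GM DC (0.04 ± 0.26, adjusted p = 0.948).

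Promoters are shown for 3 genes higher in GM4 DC whose window holds a STAT6-type motif, TTC and GAA with any 4 bases between them, in capitals. Each runs 5′ to 3′ on the gene's strand, over 250 bases before to 50 after the RefSeq start (GRCm38.p6). Pkib lies at chr10:57631731-57632030, Vdr at chr15:97908247-97908546 and Ccl17 at chr8:94810203-94810502.
Pkib: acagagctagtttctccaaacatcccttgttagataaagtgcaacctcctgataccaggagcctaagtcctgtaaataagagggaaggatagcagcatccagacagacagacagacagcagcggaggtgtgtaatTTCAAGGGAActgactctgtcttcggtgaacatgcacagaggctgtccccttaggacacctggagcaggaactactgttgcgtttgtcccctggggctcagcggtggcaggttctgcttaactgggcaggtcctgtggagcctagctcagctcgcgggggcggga
Vdr: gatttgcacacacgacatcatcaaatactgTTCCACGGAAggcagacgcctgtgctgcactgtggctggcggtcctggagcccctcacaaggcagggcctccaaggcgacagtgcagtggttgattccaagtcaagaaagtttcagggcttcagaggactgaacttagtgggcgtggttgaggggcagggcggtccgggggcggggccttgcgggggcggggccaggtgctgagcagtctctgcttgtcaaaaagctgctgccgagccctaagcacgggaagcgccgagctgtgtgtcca
Ccl17: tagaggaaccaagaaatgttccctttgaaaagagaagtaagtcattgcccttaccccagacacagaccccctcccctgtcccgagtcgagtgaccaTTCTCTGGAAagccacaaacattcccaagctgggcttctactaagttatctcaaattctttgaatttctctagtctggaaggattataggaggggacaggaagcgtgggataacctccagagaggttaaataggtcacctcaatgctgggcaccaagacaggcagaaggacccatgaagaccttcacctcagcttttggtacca
The motif starts 115 bases before the start in Pkib, 220 in Vdr and 154 in Ccl17. Pkib, an inhibitor of protein kinase A, had 1453, 1536 and 1654 in GM4 DC, against 179.5 and 386 in GM DC, with all GM4 arrays above both GM arrays (2.48 ± 0.27, adjusted p = 0.000104), and it was kept. The motif reads the same on both strands and is in 6.95% of all 32851 promoters of the table. It is in a promoter of 35 of 532 matched genes called higher (6.58%), 22 of 352 called lower (6.25%) and 439 of 6576 tested (6.68%). Of the 8 matched IL-4 genes called higher, 2 hold it. A match is a description of letters, not a bound site.

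Costimulation and maturation genes were higher in GM4 DC or not called. Of 18 measured, 8 were called higher and 0 lower, with a median difference of 0.79. At 0 h 15 were already called higher and 1 lower, with a median of 1.43. Tnfrsf9, the costimulatory receptor 4-1BB, had 258, 211 and 317 in GM4 DC, against 38.9 and 47.9 in GM DC. The lowest GM4 array was several times the higher GM array, and the difference was 2.21 ± 0.30, adjusted p = 0.000382. Cd48, an adhesion molecule read by lymphocytes, had 607, 690 and 737 in GM4 DC, against 291 and 288 in GM DC and differed by 1.18 ± 0.17, adjusted p = 0.000556. Both were kept. Tnfsf4, the ligand OX40L, had 943, 989.7 and 911 in GM4 DC, against 324 and 444 in GM DC (1.29), and Relb, an NF-kappaB subunit of mature DC, had 1216, 851 and 882 in GM4 DC, against 502 and 374 in GM DC (1.13). Tnfsf4 was lost without GM 6 h replicate 1 (1.07, adjusted p = 0.0949) and Relb without GM 6 h replicate 2 (0.93, adjusted p = 0.0883). The other calls, Cd80 (1.04), Cd24a (1.04), Tnfrsf4 (1.01) and the homing receptor Ccr7 (0.89), were each lost without 3 or more of the single 6 h arrays. The count of members higher was 6, 5 and 5 without GM4 replicates 1, 2 and 3, and 3 and 4 without GM replicates 1 and 2.

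Cd86, a ligand of CD28, did not pass by its brighter probe set, at 2142, 1379 and 1217 in GM4 DC, against 1211 and 944 in GM DC (0.51 ± 0.27, adjusted p = 0.255). Its dimmer probe set was called higher, by 1.53 (adjusted p = 0.00565), and likewise that of Cd83 (1.08, adjusted p = 0.0179), whose brighter one gave 0.52. Cd80 was called by its brighter probe set alone, and its other one gave 0.71 (adjusted p = 0.122). Cd40 had 1734, 1528 and 1693 in GM4 DC, against 2345 and 2009 in GM DC, and missed the threshold (-0.39 ± 0.13, adjusted p = 0.06). Every GM4 array lay below both GM arrays, but such separation is common among genes not called. Of 13 MHC class II and antigen loading genes, 0 were called higher and 1 lower, Ctss, the protease cathepsin S (-0.78), which was lost without GM 6 h replicate 1 (-0.63, adjusted p = 0.0671). Of 14 class I and immunoproteasome genes, 3 proteasome subunits were called higher (Psmb8 0.54, Psmb9 0.51, Psme1 0.56) and B2m (-0.79) and H2-M3 (-0.62) lower. None of these 5 was kept, and the count of higher members was 1 with GM4 6 h replicate 1 left out and 0 with GM4 6 h replicate 3 or GM 6 h replicate 2 left out.

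In the list of myeloid lineage transcription factors, all called genes but Zbtb46 were lower in GM4 DC. Zbtb46, which marks the conventional DC lineage, had 382, 358 and 321 in GM4 DC, against 116 and 79.3 in GM DC. All GM4 arrays exceeded both GM arrays, by 1.72 ± 0.33, adjusted p = 0.00426. Stat4, which relays interleukin-12 and is counted below with the STAT genes, had 890.5, 844 and 877 in GM4 DC, against 278 and 254 in GM DC. It differed by 1.65 ± 0.27, adjusted p = 0.00128. Cebpb, which drives inflammatory genes in macrophages, had 1905, 1646 and 1531 in GM4 DC, against 7225 and 4570 in GM DC and differed by -1.76 ± 0.17, adjusted p = 6.03e-05. Spi1, the myeloid regulator PU.1, had 583, 539 and 503 in GM4 DC, against 1023 and 1016 in GM DC (-0.89), and Id2, which DC need, had 3370, 3130 and 3370 in GM4 DC, against 7492 and 5429 in GM DC (-0.95), so that Id2 moved against Zbtb46 and Batf3. These 5 were kept. Over the lineage list, 1 of 21 was called higher (4.76%, against 7.73% of all genes) and 4 lower (19.0%, against 5.26%). Of 18 AP-1, EGR and early response genes, 0 were called higher and 6 lower. Fosl1, the AP-1 subunit Fra-1, had 13.9, 5.3 and 4.08 in GM4 DC, against 211 and 72.8 in GM DC, at background in GM4 DC alone (-2.60 ± 0.36, adjusted p = 0.00045), and Ier2 had 162, 108 and 112 in GM4 DC, against 413 and 386 in GM DC (-1.55 ± 0.17, adjusted p = 9.67e-05). Both were kept, while the lower members numbered 3 with GM4 6 h replicate 3 left out and 2 with GM 6 h replicate 1 left out. Of 20 NF-kappaB genes, Relb was called higher, and Nfkbiz (-0.78) and Traf5 (-0.51) lower. The number of lower members was 0 without GM4 6 h replicate 2 or GM 6 h replicate 1, 1 without GM4 6 h replicate 3 or GM 6 h replicate 2, and 3 without GM4 6 h replicate 1.

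Feedback inhibitors moved both ways, 5 of 19 being called higher and 4 lower. Socs2, which restrains growth factor signalling, had 1485, 1299 and 1459 in GM4 DC, against 308 and 304 in GM DC, without overlap (2.15 ± 0.20, adjusted p = 3.39e-05). Zfp36l1, which speeds the decay of AU-rich mRNAs, had 1094, 1663 and 1789 in GM4 DC, against 264 and 414 in GM DC (2.11 ± 0.22, adjusted p = 7.55e-05). Pias3, an inhibitor of STAT3, had 104, 133 and 123 in GM4 DC, against 51.9 and 36.6 in GM DC (1.18), and a second of its 3 probe sets was also called higher. Dusp6, a phosphatase that turns off ERK, was lower, at 34.6, 55.2 and 38.8 in GM4 DC, against 294 and 116 in GM DC (-1.79 ± 0.29, adjusted p = 0.00121). These 4 were kept. Socs1 had 1894, 1239 and 1291 in GM4 DC, against 3564 and 2539 in GM DC (-1.05) and was lost without GM 6 h replicate 1 (-0.80, adjusted p = 0.11), without which 1 member of the list was called lower. Socs3, which restrains interleukin-6 signalling, differed by -1.78 and was lost without the same array (-1.66, adjusted p = 0.0677). The count of higher members was 3 without GM4 6 h replicate 1, GM 6 h replicate 1 or GM 6 h replicate 2.

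Of 11 interleukin-1 genes, 0 were called higher in GM4 DC, 4 lower and 7 not at all, with a median difference of -0.23. Il1b, a secreted pyrogen, had 2237, 1402 and 1539 in GM4 DC, against 9107 and 6140 in GM DC. The brightest GM4 array reached less than the dimmer GM array, and the difference was -2.13 ± 0.28, adjusted p = 0.000336. Il1a, its membrane-bound relative, had 796, 820.5 and 722 in GM4 DC, against 2583 and 2967 in GM DC and differed by -1.81 ± 0.17, adjusted p = 4.8e-05. Il1rn, the receptor antagonist that opposes both, had 4637, 3568 and 3554 in GM4 DC, against 11860 and 8830 in GM DC and differed by -1.39 ± 0.16, adjusted p = 0.000159. These 3 were kept. Il18 had 58.8, 42 and 36.8 in GM4 DC, against 123 and 95.9 in GM DC (-1.03) and was lost without GM4 6 h replicate 3 (-0.92, adjusted p = 0.0569) or GM 6 h replicate 1 (-0.87, adjusted p = 0.141). At 0 h Il1b was already lower, at 149.5, 199.5 and 169 in GM4 DC, against 518, 291 and 248 in GM DC (-0.90, adjusted p = 0.0285), and so was Il1a (-0.70). At 20 h the Il1b signals were 2954 and 3413 in GM4 DC, against 3723 and 2829 in GM DC, and those of Il1a were 2187 and 2532 in GM4 DC, against 2337 and 1890 in GM DC. By then the groups of both genes overlapped.

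Of 20 other cytokines, 2 were called higher and 5 lower. Il12a, the p35 subunit of interleukin-12, had 44.2, 30.4 and 20.2 in GM4 DC, against 192 and 136 in GM DC, each GM4 array below both GM arrays (-1.93 ± 0.23, adjusted p = 0.000176), and it was kept. Il12b, the p40 subunit, had 2301, 1267 and 935 in GM4 DC, against 3856 and 3087 in GM DC (-1.29 ± 0.34, adjusted p = 0.0255). Its call was lost without any 1 of the 6 h arrays except GM4 replicate 1, with differences of -1.01 to -1.45. Tnf had 779.8, 773 and 887 in GM4 DC, against 1886 and 2955 in GM DC (-1.52 ± 0.32, adjusted p = 0.00764) and was lost without GM 6 h replicate 2 (-1.20, adjusted p = 0.0766). Csf3, the granulocyte growth factor, had 126, 110.2 and 118 in GM4 DC, against 328 and 254 in GM DC (-1.18), and Tgfb1, which restrains T cells, had 259.8, 169 and 222 in GM4 DC, against 486 and 441 in GM DC (-1.06). Both were lost without GM 6 h replicate 1, at -1.01 and -0.99, and without that array 2 members in all were called lower. Called higher were Il15, a growth factor of NK cells, at 243, 176 and 174 in GM4 DC, against 94.7 and 79.4 in GM DC (1.04), and Ebi3, a partner subunit of interleukin-27, at 1896, 1217 and 1848 in GM4 DC, against 1069 and 911 in GM DC (0.71). Ebi3 was lost without any 1 of the 6 h arrays except GM4 replicate 2, at 0.59 to 0.82. Il6 did not pass, at 3232, 3210 and 3417 in GM4 DC, against 6159 and 4918 in GM DC (-0.74 ± 0.29, adjusted p = 0.127). Its groups did not overlap, which was also so in 2540 of the 7179 genes not called. Il10, which curbs inflammation, differed by -0.69 and did not pass.

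The promoters of Il12a and Il6 are shown because the difference of both genes changed between 0 and 6 h. Il12a (chr3:68690394-68690693) holds the STAT6-type motif in both of its promoters in the table, and the capitals in the first mark it. Il6 (chr5:30012864-30013163) holds an NF-kappaB-type motif, GGGA and TTTCC with any 1 base between them, on either strand, in capitals. Both run 5′ to 3′ on the gene's strand from RefSeq (GRCm38.p6).
Il12a: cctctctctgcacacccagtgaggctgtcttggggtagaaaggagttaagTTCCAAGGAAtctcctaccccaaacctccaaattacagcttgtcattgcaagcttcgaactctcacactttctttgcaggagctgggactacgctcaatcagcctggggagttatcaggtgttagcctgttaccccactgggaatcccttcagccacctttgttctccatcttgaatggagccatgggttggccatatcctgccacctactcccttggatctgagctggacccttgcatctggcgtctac
Il6: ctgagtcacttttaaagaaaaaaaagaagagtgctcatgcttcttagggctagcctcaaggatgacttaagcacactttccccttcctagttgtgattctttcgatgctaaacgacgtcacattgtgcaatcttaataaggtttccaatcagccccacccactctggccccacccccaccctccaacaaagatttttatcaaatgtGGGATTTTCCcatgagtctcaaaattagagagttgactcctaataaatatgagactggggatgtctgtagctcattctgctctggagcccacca
The NF-kappaB-type motif is in 0.411% of all promoters. It is in a promoter of 3 of 532 matched genes called higher, 5 of 352 called lower and 38 of 6576 tested (0.578%). Il12a, lower in GM4 DC, holds the same STAT6-type letters as Pkib, Vdr and Ccl17, which were higher.

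**Figure D2:**
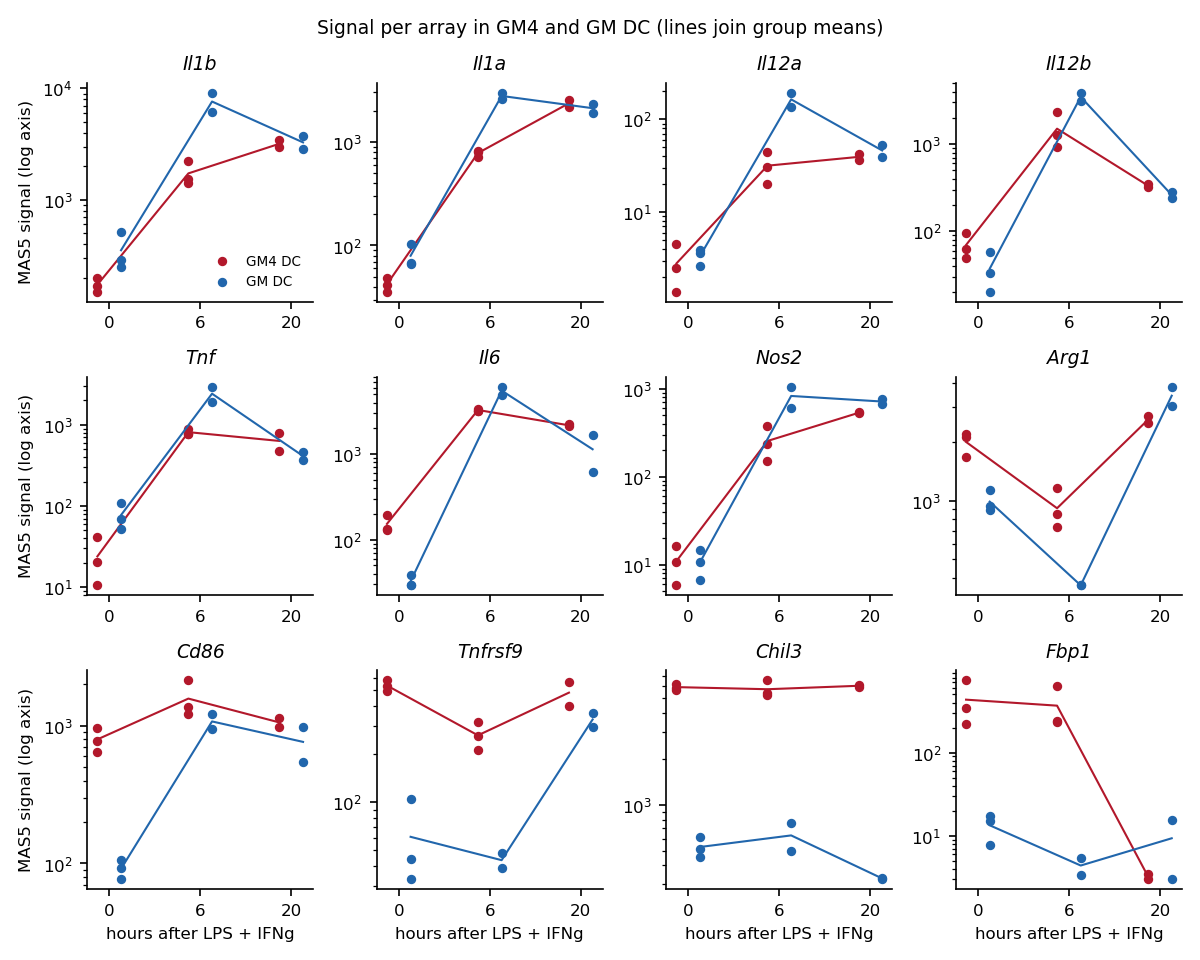
MAS5 signal (log axis) per array of 12 genes at 0, 6 and 20 h, evenly spaced on the axis, with GM4 DC (red) left of GM DC (blue). Lines join the group means. Il1b, Il1a and Tnf are called lower in GM4 DC at 0 and 6 h and Il12a at 6 h, none of the 4 is called at 20 h, Chil3 is apart at all 3 times, and Fbp1 is high in GM4 DC at 0 and 6 h.

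Chemokines and their receptors were mostly lower where called. Of 9 that attract T cells, 1 (Ccl17) was called higher and 2 lower. Cxcl9, which IFN-γ induces and Cxcr3 reads, had 2479, 2397 and 2307 in GM4 DC, against 5345 and 4666 in GM DC. Replicates agreed closely and did not overlap (-1.06 ± 0.15, adjusted p = 0.00045). Cxcl14 had 32.7, 35.4 and 27.1 in GM4 DC, against 106 and 115 in GM DC (-1.41 ± 0.19, adjusted p = 0.0004), and both were kept. Of 4 that attract monocytes, 1 was called higher, Ccl8 (1.14), which was lost without any 1 of the 6 h arrays (0.83 to 1.46). Ccl7 was called higher without GM4 6 h replicate 1 (1.73, adjusted p = 0.0376), and Ccl2 (1.21, adjusted p = 0.0262) and Ccl7 (2.02, adjusted p = 0.0438) without GM 6 h replicate 2. Of 8 that attract neutrophils or belong to the MIP-1 group, 0 were called higher and 4 lower. Cxcl2 had 661, 1254 and 1082 in GM4 DC, against 1923 and 3181 in GM DC (-1.34) and was lost without GM 6 h replicate 2 (-0.98, adjusted p = 0.0657). The others were Cxcl1 (-0.81), Ccl6 (-1.21) and Ccl9 (-0.94), and the count of lower members was 2 without GM 6 h replicate 1 or replicate 2. Of 18 chemotactic receptors, 1 was called higher (Ccr7) and 6 lower. Fpr2, which senses formyl peptides, had 302, 325 and 292 in GM4 DC, against 1090 and 1175 in GM DC (-1.83 ± 0.31, adjusted p = 0.00178). Ccrl2, which binds chemerin, had 313, 243 and 218 in GM4 DC, against 631 and 537 in GM DC (-1.14 ± 0.15, adjusted p = 0.000327), and both were kept. The lower receptors numbered 2 with GM4 6 h replicate 2 left out, 3 with GM4 6 h replicate 3 left out and 2 with GM 6 h replicate 1 left out.

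Of 20 uptake receptors, 1 was called higher in GM4 DC, 12 lower and 7 not at all, with a median difference of -0.84. At 0 h 2 were called higher and 11 lower, with a median of -0.74. Clec4d, a lectin that senses mycobacterial glycolipid, had 105, 198 and 118 in GM4 DC, against 1046 and 964 in GM DC. The GM arrays were several times brighter than any GM4 array (-2.75 ± 0.22, adjusted p = 9.19e-06). Clec4e, its partner Mincle, had 110.2, 99 and 67.1 in GM4 DC, against 436 and 488 in GM DC (-2.17 ± 0.24, adjusted p = 0.000104). Marco, a scavenger receptor for bacteria, had 85.5, 192 and 226 in GM4 DC, against 962 and 945 in GM DC (-2.49 ± 0.34, adjusted p = 0.000382). Msr1, scavenger receptor A, had 128, 155 and 139 in GM4 DC, against 600.4 and 596 in GM DC (-1.97 ± 0.19, adjusted p = 4.8e-05). These 4 were kept, and the count of lower members was 5 without GM 6 h replicate 2. Mfge8, which bridges apoptotic cells to phagocytes, was the member called higher, at 2242, 1831 and 2430 in GM4 DC, against 978 and 728 in GM DC (1.33), and it was lost without GM 6 h replicate 2 (1.13, adjusted p = 0.088).

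Of 9 Fc receptors and adaptors, 0 were called higher and 5 lower. Fcgr1, the high-affinity IgG receptor, had 527, 434 and 254 in GM4 DC, against 1555 and 1117 in GM DC (-1.72 ± 0.26, adjusted p = 0.000858). Tyrobp, the adaptor DAP12, had 487, 457 and 444 in GM4 DC, against 1096 and 908 in GM DC (-1.08 ± 0.19, adjusted p = 0.00195), and both were kept. Fcer1g, the common signalling chain, had 202, 141 and 131 in GM4 DC, against 512 and 317 in GM DC (-1.29), was lost without GM 6 h replicate 1 (-0.96, adjusted p = 0.0994), and without that array 2 members were called lower. Of 11 LPS and Toll-like receptor genes, 1 was called higher, Traf6 (0.47), which was lost without any 1 of the 6 h arrays (0.38 to 0.56), and 4 lower. Cd14, the LPS coreceptor, had 3792, 2477 and 2882 in GM4 DC, against 12290 and 8565 in GM DC (-1.77 ± 0.19, adjusted p = 8.68e-05), and Tlr6, which pairs with Tlr2, had 106, 97.7 and 61.7 in GM4 DC, against 351 and 275 in GM DC (-1.67 ± 0.20, adjusted p = 0.000177). Both were kept, the other lower members were Tlr7 (-1.30) and Ly86 (-0.60), and 2 members were called lower without GM 6 h replicate 2.

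Of 16 monocyte and macrophage markers, 0 were called higher and 11 lower, with a median difference of -1.15. At 0 h 0 were called higher and 8 lower, with a median of -0.86. Cd14, Fcgr1, Marco, Mertk, Mrc1, Cd68 and Ccr2 were already counted above. Lyz2, lysozyme, had 1081, 964 and 832 in GM4 DC, against 7816 and 4883 in GM DC. Both GM arrays lay several times above all GM4 arrays (-2.68 ± 0.19, adjusted p = 5.37e-06). Csf1r, the receptor of the macrophage growth factor, had 241, 285 and 209.5 in GM4 DC, against 992 and 910.3 in GM DC (-1.90 ± 0.23, adjusted p = 0.000177), and Lyz2 and Csf1r were kept with Cd14, Fcgr1 and Marco. The summed signal of the 16 was 5603 to 7470 in GM4 DC, against 19210 to 26420 in GM DC. Cd14 and Lyz2 made up most of this sum on every 6 h array, so it says little about the other markers. The lower markers numbered 7 with GM4 6 h replicate 3 or GM 6 h replicate 1 left out and 6 with GM 6 h replicate 2 left out. The complement genes C1qa, C1qb and C1qc did not pass, with differences of 0.30, -0.03 and -0.00. The part of these markers in the lower uptake, lysosomal and inflammatory genes was not tested.

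DC markers were present in both groups. Of 17 measured, Zbtb46, Batf3, Irf4 and Ccr7 were called higher and Id2 and Ctss lower, and the summed signal was 39000 to 50890 in GM4 DC, against 42630 to 55520 in GM DC. Itgax, the integrin CD11c, had 625, 424 and 494 in GM4 DC, against 509 and 594 in GM DC (-0.11 ± 0.19, adjusted p = 0.777), and the groups overlapped. Of 16 neutrophil markers, Mmp8 and Fpr2 were called lower, and the sums were 8261 to 11610 in GM4 DC, against 7893 to 10780 in GM DC. The T cell chains Cd3d, Cd3e and Cd3g stayed at or near background on every array, the highest signal being 16.9. Of 12 B cell, 15 T and NK cell, and 16 mast cell and granulocyte markers, 1 each was called higher (Ighm 0.73, Cd8a 0.86, Mcpt8 1.19), none of them kept. Of 15 stromal markers 1 was called lower (Pdgfrb -0.83), with sums of 764.7 to 986.5 in GM4 DC, against 1032 to 1681 in GM DC. Of 6 plasmacytoid DC markers Tlr7 was called lower, and neither Tlr7 nor Pdgfrb was kept. Of 7 erythroid and platelet markers 0 were called.

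Genes of arginine metabolism were called in both directions. Nos2, inducible nitric oxide synthase, had 382, 234 and 150.5 in GM4 DC, against 1058 and 601 in GM DC. The GM4 arrays all lay below the GM arrays (-1.68 ± 0.31, adjusted p = 0.00358), and the call was lost without GM 6 h replicate 1 (-1.28, adjusted p = 0.0737). Slc7a2, which imports arginine, had 538, 374 and 279 in GM4 DC, against 1200 and 1107 in GM DC (-1.55 ± 0.24, adjusted p = 0.000889). Arg1, which competes for arginine, and Spr, which makes the cofactor tetrahydrobiopterin, were the members called higher. Spr had 71.5, 86.2 and 96.8 in GM4 DC, against 33.6 and 29 in GM DC (1.09 ± 0.19, adjusted p = 0.00253). Arg1, Spr and Slc7a2 were kept, and of the 14 measured 2 were called each way. Of 9 NADPH oxidase and phagosome genes, 0 were called higher and 2 lower, Slc11a1 (-1.02) and Ncf4 (-0.63), and the count was 1 with replicate 2 of either group left out and 0 with GM4 6 h replicate 3 or GM 6 h replicate 1 left out.

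Of 15 lipid mediator genes, 3 were called higher and 5 lower. Ptgs2, cyclooxygenase-2, had 1230, 1314 and 1117 in GM4 DC, against 5802 and 3988 in GM DC. Both GM arrays lay well above all GM4 arrays (-1.97 ± 0.32, adjusted p = 0.00146). Ptges, which makes prostaglandin E2 from its product, had 189, 189.5 and 152 in GM4 DC, against 822 and 665 in GM DC (-1.98 ± 0.32, adjusted p = 0.00116). Pla2g7, which degrades platelet-activating factor, had 518, 420.2 and 327 in GM4 DC, against 1613 and 1060 in GM DC (-1.62 ± 0.25, adjusted p = 0.00099). Ltc4s, leukotriene C4 synthase, was higher, at 504, 509 and 638 in GM4 DC, against 124 and 123 in GM DC (2.02 ± 0.35, adjusted p = 0.00207). Ptger4, a receptor for prostaglandin E2, had 1324, 1676 and 1382 in GM4 DC, against 430.1 and 686 in GM DC (1.39) and was lost without GM 6 h replicate 1 (1.07, adjusted p = 0.0745). Ptges, Pla2g7 and Ltc4s were kept, and the remaining calls were Pla2g4a (-1.11), Tbxas1 (-0.72) and Lta4h (0.66), the last of which was lost in 21 of the 26 fits. Without GM 6 h replicate 1, 1 member was called higher and 3 lower.

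Of 23 antioxidant and metal-binding genes, 3 were called higher and 12 lower, with a median of -0.67. Hmox1, heme oxygenase, had 1925, 1513 and 1255 in GM4 DC, against 6897 and 3671 in GM DC. All GM4 arrays were below both GM arrays (-1.70 ± 0.24, adjusted p = 0.000454). Sod2, mitochondrial superoxide dismutase, had 796, 905 and 944 in GM4 DC, against 3034 and 2744 in GM DC (-1.70 ± 0.17, adjusted p = 6.03e-05). Txnrd1, thioredoxin reductase, had 664, 599.7 and 547 in GM4 DC, against 1615 and 1077 in GM DC (-1.11 ± 0.15, adjusted p = 0.000379). Fth1, the ferritin heavy chain, had 4489, 4474 and 4419 in GM4 DC, against 12240 and 8986 in GM DC (-1.23 ± 0.17, adjusted p = 0.00045), although a second probe set of the gene gave 0.09 and did not pass. Gclm and Gclc, which make glutathione, differed by -0.93 and -1.08, and the metallothioneins Mt1 and Mt2 by -1.56 and -1.22. On the other side, Cat, catalase of peroxisomes, had 204, 260 and 269.8 in GM4 DC, against 116 and 94.2 in GM DC (1.11 ± 0.18, adjusted p = 0.00112), with a second probe set at -0.10, and Gsto1 had 536, 757 and 933 in GM4 DC, against 206 and 313 in GM DC (1.45 ± 0.25, adjusted p = 0.00217). Hmox1, Sod2, Txnrd1, Fth1, Cat and Gsto1 were kept, and the lower members numbered 4 without GM 6 h replicate 1.

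Of 30 lysosomal genes, 18 were called lower in GM4 DC and 1 higher, with a median of -0.58. At 0 h 19 were called lower and 0 higher, with a median of -0.60. Hexa, which degrades gangliosides, had 326, 313 and 339 in GM4 DC, against 814 and 765 in GM DC. Replicates agreed closely, and the groups did not overlap (-1.24 ± 0.14, adjusted p = 0.000116). Ctsc, which activates granule proteases, had 1217, 1256 and 998 in GM4 DC, against 3461 and 2840 in GM DC (-1.43 ± 0.26, adjusted p = 0.00288). Psap, the precursor of the saposins, had 2775, 3084 and 3676 in GM4 DC, against 6894 and 6457 in GM DC (-1.08 ± 0.17, adjusted p = 0.00111), and Ctsa had 431, 358 and 303 in GM4 DC, against 877 and 696 in GM DC (-1.08 ± 0.19, adjusted p = 0.00216). These 4 were kept, and the lower members numbered 7 without GM 6 h replicate 1. The single higher member, Ctse, a protease of antigen processing, had 1209, 750.1 and 649.7 in GM4 DC, against 386 and 428 in GM DC (1.02) and was lost without any 1 of the 6 h arrays except GM4 replicate 3, at 0.76 to 1.09.

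By their brightest probe sets, secreted matrix and acute-phase genes were lower or not called. Of 18 matrix proteases and inhibitors, 0 were called higher and 7 lower. Slpi, an inhibitor of neutrophil elastase, had 276, 244 and 303 in GM4 DC, against 1389 and 1094 in GM DC. The GM4 arrays were far below the GM arrays (-2.11 ± 0.19, adjusted p = 3.38e-05). Mmp14, a membrane collagenase, had 869, 633 and 588 in GM4 DC, against 2091 and 1805 in GM DC (-1.48), and Fn1, fibronectin, had 257, 184 and 159 in GM4 DC, against 629.7 and 478 in GM DC (-1.41). Slpi, Mmp14 and Fn1 were kept. Of 20 acute-phase and secreted recognition genes, 0 were called higher and 9 lower. Igf1 of this list did not pass by its brighter probe set (-0.62), but its dimmer one was called higher (1.62, adjusted p = 0.00484). Inhba, the subunit of activin A, had 764, 539 and 346 in GM4 DC, against 1755 and 1899 in GM DC (-1.77 ± 0.25, adjusted p = 0.000494). Fst, follistatin, which binds and blocks activin, had 68, 44.4 and 57.2 in GM4 DC, against 526 and 788 in GM DC, lower by more than its ligand (-3.20 ± 0.26, adjusted p = 1.14e-05), though the 2 differences were not tested against each other. Ptx3, a soluble pattern receptor, had 455, 540 and 497 in GM4 DC, against 3402 and 4259 in GM DC (-2.90 ± 0.33, adjusted p = 0.000145). Hp, haptoglobin, had 471, 428 and 452 in GM4 DC, against 938 and 1014 in GM DC (-1.09). Inhba, Fst, Ptx3, Hp and Vnn3 (-1.52) were kept, and the lower members numbered 5 without GM 6 h replicate 1.

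Interferon-stimulated genes were mostly not called, and those that were called were lower in GM4 DC. The lower calls made up 26.3% of the type I list and 23.1% of the GBP and IRG list, against 5.26% of all genes. The median differences of these lists were -0.48 and -0.44. Of 19 type I interferon-stimulated genes, 0 were called higher and 5 lower, and Ly6e, at 3889, 2854 and 3088 in GM4 DC, against 7706 and 6552 in GM DC (-1.13 ± 0.16, adjusted p = 0.000629), was kept. The other lower calls were Ifit1 (-0.78), Ifit2 (-0.97), Ifih1 (-0.67) and Samhd1 (-0.55). The count of lower members was 2 without GM4 6 h replicate 2, GM4 6 h replicate 3 or GM 6 h replicate 2, and 1 without GM 6 h replicate 1. Of 13 GBP and IRG genes, GTPases that IFN-γ induces against intracellular pathogens, 0 were called higher and 3 lower, and the count was 0 without GM 6 h replicate 1 and 1 without GM 6 h replicate 2. Of 18 IRF, STAT and JAK genes, Irf4, Stat4 and Batf3 were called higher and 0 lower.

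Among adhesion genes, 2 of 23 were called higher (1 without GM 6 h replicate 1) and 6 lower. Itgal, the chain of the integrin LFA-1, had 120, 116 and 97.2 in GM4 DC, against 472 and 342 in GM DC, without overlap (-1.72 ± 0.25, adjusted p = 0.000629), and its partner Itgb2 had 557, 364 and 396 in GM4 DC, against 1042 and 1066 in GM DC (-1.26). Cd82, a tetraspanin, was higher, at 1310, 1078 and 1214 in GM4 DC, against 347 and 540.1 in GM DC (1.43 ± 0.19, adjusted p = 0.000349), and Itgal, Itgb2 and Cd82 were kept. Of 27 cytokine receptor genes, 1 was called higher, Il2ra (0.82), which was lost without GM4 6 h replicate 3, GM 6 h replicate 1 or GM 6 h replicate 2 (0.73 to 0.85), and 6 lower. Kept among these were Csf1r, the interferon receptor chain Ifnar2 at 209.8, 144 and 140.2 in GM4 DC, against 529 and 360.5 in GM DC (-1.35), Il10rb (-1.03) and the TNF receptor Tnfrsf1b at 1246, 1028 and 1202 in GM4 DC, against 3328 and 2432 in GM DC (-1.29). A second probe set of Ifnar2, of similar brightness, gave -0.31 and did not pass. Of 15 glycolysis genes, 1 was called higher, Hk1 (1.10), which was lost without GM4 6 h replicate 2, GM4 6 h replicate 3 or GM 6 h replicate 1 (0.83 to 0.98), and 5 lower. Hif1a, which turns on glycolysis, had 3171, 2725 and 2765 in GM4 DC, against 8870 and 6779 in GM DC (-1.42 ± 0.19, adjusted p = 0.000349), was called by both of its probe sets and was kept. Slc2a1, the glucose transporter, differed by -1.74 and was lost without GM 6 h replicate 1 (-1.07, adjusted p = 0.0961), and the count of lower members was 9 without GM4 6 h replicate 1 and 1 without GM 6 h replicate 1.

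Abca1, which exports cholesterol, and Ch25h were the sterol genes called lower, with 1 of the 24 (Elovl5 0.77) called higher. Abca1 had 247, 154 and 132 in GM4 DC, against 922 and 705 in GM DC. No GM4 array came near the GM arrays (-2.13 ± 0.23, adjusted p = 9.52e-05), though its dimmer probe set gave -0.51 and did not pass. Abca1 and Ch25h were kept, and Elovl5 was lost without GM 6 h replicate 1 (0.60, adjusted p = 0.0937). Of 30 oxidative phosphorylation genes 1 was called higher and 0 lower, and of 31 cell cycle genes likewise 1, Ezh2, a histone methyltransferase, at 229, 284 and 274 in GM4 DC, against 108 and 134 in GM DC (1.02 ± 0.15, adjusted p = 0.000651), which was kept. Of 17 BCL-2 and caspase genes 3 were called higher and 1 lower, of 14 S100 and annexin genes 1 each way, of 22 ribosomal protein genes 2 each way, of 16 complement genes 0 and 3, and of 19 endoplasmic reticulum folding genes 0 and 3. In the lists from oxidative phosphorylation to endoplasmic reticulum folding, none of the calls apart from Ezh2 and the complement receptor chain Itgb2 was kept.

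**Figure D3:**
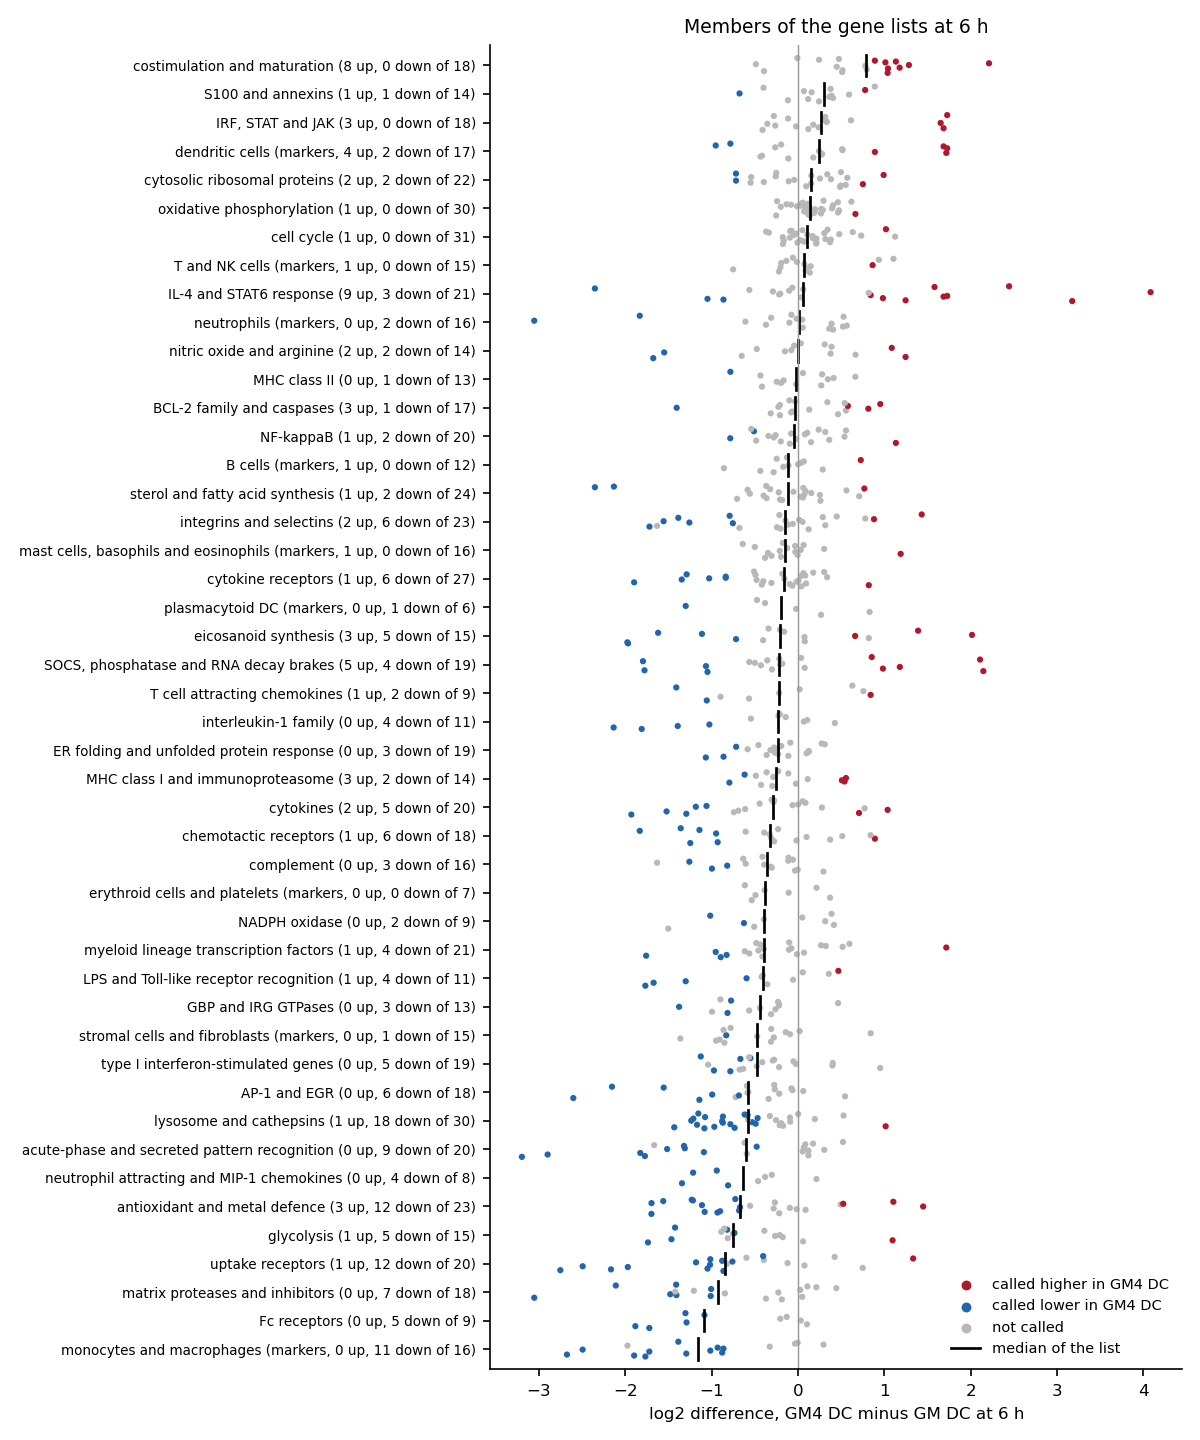
Differences at 6 h (log2, GM4 minus GM) of the members of every list with at least 5 measured genes, a point for each gene, with the median as a black line. Red points were called higher in GM4 DC, blue points lower and grey points were not called. Costimulation genes, with a median of 0.79, lie at the top, and macrophage markers, with a median of -1.15, at the bottom.

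The 0 h and 20 h arrays give the setting of the 6 h result. At 0 h, 1337 genes (16.2%) were called either way, and at 20 h, with 2 arrays in each group, 446 (5.41%). The source names of the GM4 samples at 0 h mention exposure to LPS and IFN-γ, and their titles give 0 h. The 3 comparisons use separate arrays but share the fit's estimate of the spread of each gene, so their calls are not independent. Of the 638 genes higher at 6 h, 311 (48.7%) were among the 664 higher at 0 h (46.8% of those), and 4 were called lower there (Lpin1, Cerk, Gtse1 and Tex261). Of the 434 lower at 6 h, 214 (49.3%) were among the 673 lower at 0 h (31.8% of those), and 8 were called higher there. Among those 8, all chosen here by their values, were Socs1, Acod1, which makes itaconate (0.88 at 0 h and -1.14 at 6 h), the kinase Pim3 (0.97 and -1.31) and the transcription factor Ets2 (0.65 and -0.71). At 20 h, 164 of the 638 were again higher (56.2% of the 292 higher there) and 74 of the 434 lower (48.1% of the 154 lower there). Chil3 and Dgka were called higher at all 3 times, with differences of 3.46, 3.18 and 4.13 for Chil3. Lyz2, Csf1r and Msr1 were called lower at all 3 times. The beta-actin and hybridisation controls also differed between the groups at all 3 times.

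**Figure D4:**
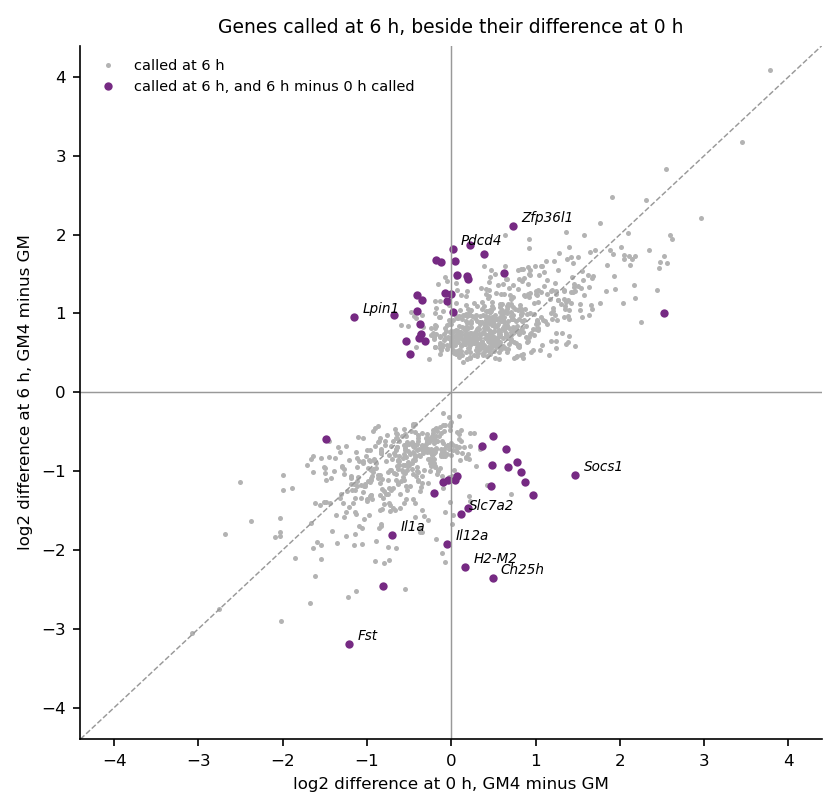
Difference at 6 h against difference at 0 h (log2, GM4 minus GM) for the 1072 genes called at 6 h, a point for each gene. Purple points are genes in which the difference of the differences was called as well, and the dashed line marks equal values. Ch25h, H2-M2, Il12a and Fst lie far below the line and Zfp36l1 and Pdcd4 above it.

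The difference between the cultures itself changed between 0 and 6 h in 102 genes (1.24%), by a test of the difference of the 2 differences. This test shares the 6 h arrays with the 6 h comparison. The largest downward change was that of Ch25h. Its signals at 0 h were 29.1, 77.7 and 63.4 in GM4 DC, against 28.5, 24.6 and 51.1 in GM DC, and at 6 h 179, 231 and 152 in GM4 DC, against 723 and 1404 in GM DC. The 0 h groups differed by 0.49 and the 6 h groups by -2.35, a change of -2.84 ± 0.46, adjusted p = 0.0099. Socs1 had 696, 727 and 646 in GM4 DC, against 282, 275 and 174 in GM DC at 0 h and reversed at 6 h, a change of -2.52 ± 0.29, adjusted p = 0.00141. Il6 had 130.2, 196 and 133 in GM4 DC, against 38.9, 29.2 and 29.8 in GM DC at 0 h, all GM4 arrays above all GM arrays, and the order at 6 h was the opposite one, a change of -2.52 ± 0.39, adjusted p = 0.0074. Cd86 had 646, 972 and 776 in GM4 DC, against 92, 106 and 76.9 in GM DC at 0 h and a difference of 0.51 at 6 h, a change of -2.40 ± 0.36, adjusted p = 0.00537. Ccl5, which attracts T cells, had 5384, 4285 and 6273 in GM4 DC, against 1296, 735 and 2939 in GM DC at 0 h and 6226, 4684 and 5834 in GM4 DC, against 12590 and 8475 in GM DC at 6 h, a change of -2.78 ± 0.54, adjusted p = 0.0244. The calls of Ch25h and Socs1 were kept. That of Il6 was lost without GM 6 h replicate 1 (-2.36, adjusted p = 0.0512), and that of Cd86 when GM 0 h replicate 3 and GM 6 h replicate 1 were both left out (-2.12, adjusted p = 0.0614). That of H2-M2 (-2.38) was lost without GM 0 h replicate 2, GM4 6 h replicate 2, GM4 6 h replicate 3 or GM 6 h replicate 1 (-2.17 to -2.30). That of Ccl5 was lost without GM4 0 h replicate 1 or 3, GM4 6 h replicate 2 or 3, or GM 6 h replicate 1 (-2.49 to -2.82).

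Several inflammatory genes shared this course without standing among the largest. The log2 differences of Il12a were -0.05 at 0 h, -1.93 at 6 h and -0.16 at 20 h, those of Fst -1.21, -3.20 and -1.17, and those of Cd40 1.17, -0.39 and 0.32. The change between 0 and 6 h was called for Il12a (-1.88 ± 0.31, adjusted p = 0.00994), Fst (-1.98 ± 0.35, adjusted p = 0.014) and Cd40 (-1.56 ± 0.17, adjusted p = 0.000828). The call of Il12a was lost without GM 6 h replicate 1 (-1.65), and when GM 0 h replicate 3 was left out as well (-1.625). With an offset of 1, the calls of Il12a (-2.10, adjusted p = 0.115) and Fst (-1.45, adjusted p = 0.182) were lost. Upward, Pdcd4, an inhibitor of translation, had 460.4, 429 and 350.1 in GM4 DC, against 428, 376 and 415 in GM DC at 0 h, with overlapping groups, and 495, 474 and 446 in GM4 DC, against 122 and 124 in GM DC at 6 h, a change of 1.80 ± 0.18, adjusted p = 0.000528. Rgs2, a brake on G protein signalling, had 147, 158 and 174 in GM4 DC, against 594, 514 and 673 in GM DC at 0 h and 93.2, 111 and 93.9 in GM4 DC, against 46.4 and 88.2 in GM DC at 6 h, a change of 2.30 ± 0.27, adjusted p = 0.00141. Rasa3, a Ras inhibitor, followed with 1.85. Pdcd4, Rgs2 and Rasa3 kept these calls. Lpin1, a phosphatidate phosphatase (2.11), lost its call when GM 0 h replicate 3 and GM 6 h replicate 1 were both left out (2.24, adjusted p = 0.0525). Dmtn (1.86) and Coch (1.77) lost theirs without GM 6 h replicate 1 (1.81 and 1.66). Dmtn lost it also without GM4 6 h replicate 2 (1.77), and Coch with an offset of 1 (2.65, adjusted p = 0.104). The number of probe sets with a called change was 119, and 54 without GM 6 h replicate 1, 69 and 77 without GM4 6 h replicates 2 and 3, 76 without GM 0 h replicate 2 and 298 without GM 6 h replicate 2.

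**Figure D5:**
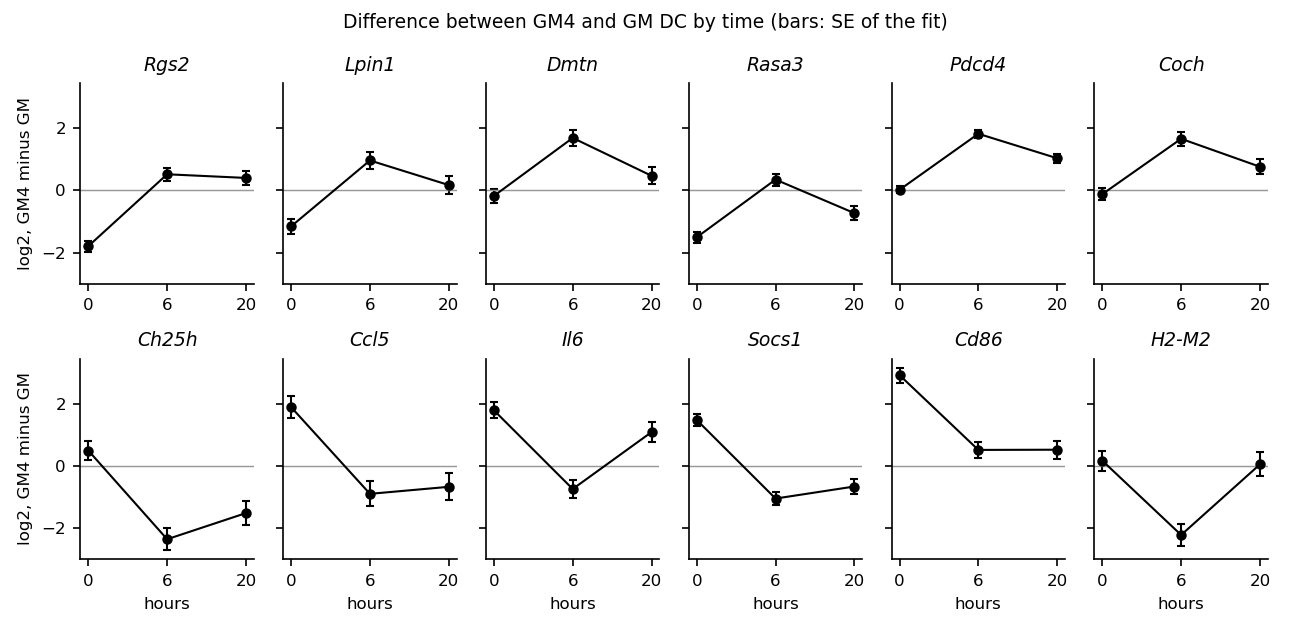
Log2 difference between GM4 and GM DC at 0, 6 and 20 h, evenly spaced, for the 6 largest upward (top) and 6 largest downward (bottom) changes between 0 and 6 h. Bars are the SE of the fit. Ch25h, Ccl5, Il6, Socs1 and H2-M2 are above 0 at 0 h and below it at 6 h, though Ch25h and H2-M2 were not called at 0 h.

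Between 6 and 20 h the difference changed in 65 genes (0.788%), 38 upward and 27 downward. Of these, 4 were kept over 25 fits. The difference of Il1a changed by 1.97 ± 0.25, adjusted p = 0.00546. That of Pdpn changed by 2.06 ± 0.26, adjusted p = 0.0046, with 20 h signals of 148 and 124 in GM4 DC, against 196 and 173 in GM DC. Aplp2, a relative of the amyloid precursor, was higher at 6 h (1038, 1238 and 1198 in GM4 DC, against 564 and 659.6 in GM DC) and was called lower at 20 h (791 and 694 in GM4 DC, against 1220 and 1196 in GM DC), a change of -1.60 ± 0.19, adjusted p = 0.00438. Ngp, a neutrophil granule protein, did not pass at 6 h and was lower in GM4 DC at 20 h (28.8 and 15.9 in GM4 DC, against 285 and 319 in GM DC), a change of -3.64 ± 0.43, adjusted p = 0.00438. Fbp1 signals at 20 h were 3.02 and 3.48 in GM4 DC, against 3.02 and 15.7 in GM DC, at background on nearly all arrays, a change of -4.44 ± 0.68, adjusted p = 0.0146. Upward changes were also called for Clec4e (2.51), Il1b (2.10), Inhba (2.09), Fst (2.03) and Sod2 (1.66), and downward ones for Arg1 (-1.64) and Cd82 (-1.65). The calls of Fbp1 and of these 7 were lost without 1 or more of the single 20 h arrays, and over all fits the size of the change stayed at 2.02 or more for Clec4e and 1.82 or more for Il1b. The number of genes fell to 6 and 11 without GM4 20 h replicates 2 and 1, 7 and 29 without GM 20 h replicates 2 and 1, 22 without GM 6 h replicate 1, 24 and 31 without GM4 6 h replicates 3 and 2, and 35 without GM 0 h replicate 2.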

How the data were processed

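Affymetrix mouse arrays, 1 for each sample, read RNA of DC cultures after labelling with an ENZO kit, per the labels. The authors deposited linear probe set intensity, made with MAS5 according to the submitters' processing notes, which give no version in the sources used here. The 2% trimmed mean was 150.1 on every array, so each had been scaled to the same level and a change in total RNA per cell is hidden. Groups follow the titles. The 66 control probe sets were left out and 12422 were tested. By the platform annotation 10833 of these had a single gene symbol, 396 had several, 1193 had none, and 8251 genes were covered. Each gene was represented by its brightest probe set.

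Values were analysed as log2(signal + 16) with limma 3.58.1 in R 4.3.3, with 6 group means over 15 arrays, an intensity trend, 9 residual and 4.76 prior degrees of freedom. Benjamini-Hochberg adjusted p-values below 0.05 were called. The fit was tested on simulated data. Named by rank were the 15 largest differences each way among called genes whose arrays did not overlap, and the 6 largest changes each way between 0 and 6 h. The 47 lists (38 of pathways, 9 of cell markers) held 915 genes, 707 of them measured. Members, lists, tests and alternatives were chosen with earlier results of these data known. Alternatives were other offsets, normalizations and filters, no trend, array weights, a replicate block, only the groups compared, an RNA quality covariate, omission of 2 arrays with extreme controls, and omission of each array. Promoters were matched to genes by symbol. The number of arrays limits the precision. Each p-value sets a difference against the spread between replicates of these 15 arrays, combined with limma's prior.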

Additional observations from a re-analysis of the deposited data

Results flagged for a closer look

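The difference between GM4 and GM DC was itself different at 6 h and at 0 h in 119 probe sets, by a test of the difference of the differences (limma, adjusted p below 0.05). Upward, the 6 largest changes on the log2 scale were 2.30 for Rgs2, 2.11 for Lpin1, 1.86 for Dmtn, 1.85 for Rasa3, 1.80 for Pdcd4 and 1.77 for Coch. Downward, they were -2.84 for Ch25h, -2.78 for Ccl5, -2.52 for Il6, -2.52 for Socs1, -2.40 for Cd86 and -2.38 for H2-M2.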

How the results depend on the processing

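No gene named by rank changed direction under any of the 26 alternatives. With only the groups compared, 723 probe sets were called (405 higher and 318 lower) and 573 genes, the change between 0 and 6 h was called for 70 probe sets, and the members called lower numbered 1 for the IL-4 list, 6 for uptake and 9 for the lysosome. With the RNA quality covariate 794 were called (427 and 367) and 641 genes, with 3 cytokines and 10 lysosomal genes lower and 5 costimulation genes higher. With GM 0 h replicate 3 and GM 6 h replicate 1 omitted 678 were called (380 and 298) and 539 genes, with 3 cytokines and 9 lysosomal genes lower and 4 costimulation genes higher. The change between 0 and 6 h, called for 119 probe sets, was called for 213 with a filter at the 40th percentile and 230 with array weights.

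Leaving out single arrays gave 604 to 1464 probe sets (353 to 833 higher, 251 to 708 lower), 481 to 1126 genes and 54 to 298 probe sets with a called change between 0 and 6 h. Lower members numbered 2 to 6 for cytokines, 7 to 19 for the lysosome, 5 to 13 for uptake and 6 to 11 for macrophage markers, and higher members 3 to 9 for costimulation. Without GM 6 h replicate 2, the share of calls that were higher was 46.7%, against 57.4%, with 620 higher and 708 lower.

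With the replicate block, 1600 probe sets were called at 6 h and 206 for the change between 0 and 6 h. The labels do not say what a shared number means. The correlation of the deviations of same-numbered samples from their group means was 0.36 and 0.24 at 6 h. It was 0.38, 0.06 and 0.28 at 0 h, so not every pair was above 0.1. At 20 h it was 0.35. With 2 arrays in each group there, the deviations within a group mirror each other, so both pairs must give the same value. The 2 GM arrays at 6 h mirror each other likewise, so the 6 h values are not independent. Signals below 16, 29.7% to 34.6% of probe sets on the 6 h arrays and up to 35.3% on the others, limit what dim genes can show.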
